A study of Rattus norvegicus with 8 samples.

Results

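Syndecans and the enzymes that build, sulfate and cut heparan sulfate were examined in peritoneal macrophages of Wistar rats that had received mesotheliomagenic or non-mesotheliomagenic carbon nanotubes. The 10 genes were taken from the table of 23487 genes by symbol: the syndecans Sdc1, Sdc2, Sdc3 and Sdc4, the glypican Gpc1, the chain polymerase Ext1, the sulfotransferases Ndst1, Hs3st1 and Hs3st3b1, and the heparanase Hpse. They were chosen by name as one pathway, with the differences between CNT-7 and CNT-T in these same libraries already known, so that their levels and fold changes are given as a description without a test. Of the 10 genes, 7 passed the filter on low counts, each with at least 46 counts in every rat. Each rat received 2 mg of the needle-like MWCNT-XNRI-7 (CNT-7, 4 rats) or the tangled MWCNT-CNT-T (CNT-T, 4 rats) into the peritoneal cavity. The rats were 8 weeks old females, and their macrophages were isolated on a cell sorter 15 days later. Untreated rats were not analysed here, so every difference is one between both particles. Levels are given in CPM, counts scaled to a common library size after TMM normalization, and a positive log2 fold change means a higher level with CNT-7.

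Heparan sulfate is a long sugar chain that is attached to core proteins at the cell surface and in the matrix. Syndecans are core proteins that span the membrane, and glypicans are core proteins held by a lipid anchor. The chain is begun on a linker shared with chondroitin sulfate, lengthened by Ext1 with Ext2, and then sulfated, first by N-deacetylase/N-sulfotransferases such as Ndst1 and late by 3-O-sulfotransferases such as Hs3st3b1. The pattern of sulfate groups decides which chemokines, growth factors and proteases bind, and heparanase cuts the finished chain. On macrophages, syndecans take part in adhesion, motility and the binding of such ligands, and Sdc1 (CD138) is also known as a marker of plasma cells.

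The sequence before the start of 5 of these genes is shown, to be read beside the levels that follow. Of these 5 genes 4 were higher and 1 was lower after CNT-7. Ndst1, also lower after CNT-7, and Hs3st1 are not printed but are counted in the matches below. The RefSeq promoter table (assembly GRCr8, not the Rnor_6.0 assembly of the counts) gave a single window of 250 bases for 7 of the 10 genes. Sdc2, Gpc1 and Ext1, without a single such window, were not used. Each line gives the 250 bases before the start in the direction of the gene, and capitals mark the GC box GGGCGG on either strand.
Sdc1, chr6:37281791-37282040, plus strand: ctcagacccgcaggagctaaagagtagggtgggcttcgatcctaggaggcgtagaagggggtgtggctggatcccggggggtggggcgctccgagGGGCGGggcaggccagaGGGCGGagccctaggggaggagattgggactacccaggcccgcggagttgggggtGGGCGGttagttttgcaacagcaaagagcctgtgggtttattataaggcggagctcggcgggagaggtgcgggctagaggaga
Sdc3, chr5:148249542-148249791, plus strand: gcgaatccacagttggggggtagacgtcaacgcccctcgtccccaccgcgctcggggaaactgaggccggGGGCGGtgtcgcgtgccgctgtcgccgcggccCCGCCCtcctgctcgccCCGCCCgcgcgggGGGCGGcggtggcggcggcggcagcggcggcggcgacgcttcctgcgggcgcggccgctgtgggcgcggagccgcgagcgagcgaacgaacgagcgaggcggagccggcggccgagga
Sdc4, chr3:173592924-173593173, minus strand: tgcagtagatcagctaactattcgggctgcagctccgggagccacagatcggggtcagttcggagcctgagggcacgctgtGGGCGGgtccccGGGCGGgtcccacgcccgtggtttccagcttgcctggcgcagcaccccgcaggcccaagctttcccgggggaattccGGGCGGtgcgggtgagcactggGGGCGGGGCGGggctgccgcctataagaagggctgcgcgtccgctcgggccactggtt
Hs3st3b1, chr10:49093186-49093435, minus strand: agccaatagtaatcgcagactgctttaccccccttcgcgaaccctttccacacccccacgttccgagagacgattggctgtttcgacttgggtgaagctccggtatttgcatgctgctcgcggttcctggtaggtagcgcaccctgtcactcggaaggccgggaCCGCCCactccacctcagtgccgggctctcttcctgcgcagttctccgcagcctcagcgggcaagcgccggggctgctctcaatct
Hpse, chr14:9200721-9200970, plus strand: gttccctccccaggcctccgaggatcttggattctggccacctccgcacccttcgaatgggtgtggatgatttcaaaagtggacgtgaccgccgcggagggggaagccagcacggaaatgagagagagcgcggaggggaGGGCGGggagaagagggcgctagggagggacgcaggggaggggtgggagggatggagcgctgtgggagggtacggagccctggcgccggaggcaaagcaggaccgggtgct

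At least one GC box lay in this window in 6 of the 7 genes, 3 in Sdc1, 4 in Sdc3, 5 in Sdc4 (of which 2 overlap), 2 in Ndst1, 1 in Hs3st3b1 and 1 in Hpse, whereas 30.5% of all 33469 promoters of the same length held one. The windows were rich in G and C, from 54.8% in Ndst1 to 80.0% in Sdc3, beside a median of 51.2% over all promoters. The CCAAT box (CCAAT, on either strand) occurred once in Sdc1 and at 2 positions in Hs3st3b1, and it is held by 11385 of all 33469 promoters. The letters GAGGAA, part of ETS and PU.1 motifs, occurred in Ndst1 alone among the 7 genes and in 23.3% of all promoters. The letters TATAAA (12.9% of all promoters), TGANTCA of AP-1 (6.34%) and TTCNNNGAA of STAT factors (7.67%) were found in none of the 7 windows. These are matches of letters and not measured binding sites.

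The libraries held between 27195157 and 33732981 counts per rat, and 3 counts correspond to between 0.0887 and 0.109 CPM, a floor that covers counting error alone. Macrophage markers fixed for this check (Cd68, Csf1r, Adgre1, Mertk, Fcgr1a, C1qa, C1qb, C1qc, Cd14 and Lyz2) were all present, with a summed level of 18611 to 24819 CPM after CNT-7 and 26892 to 39125 CPM after CNT-T. Of these 10 genes 6 were lower and 1 was higher after CNT-7. Most of each sum was Lyz2, which was not called (edgeR adjusted p = 0.1002). It had 12196.8 to 19617.7 CPM after CNT-7 and 20528.8 to 30098.5 CPM after CNT-T. Plasma and B cell genes summed to 3.43 to 10.2 CPM with CNT-7, against 4.26 to 11.5 CPM with CNT-T, over the 9 of 10 genes with a row in the table, and the only one tested, Cd79a, was lower with CNT-7. Genes of T cells summed to 11.4 to 13.9 CPM with CNT-7, against 4.55 to 4.97 CPM with CNT-T (6 genes). Of the 3 that could be tested, Cd2 and Cd8a were higher after CNT-7 and Lck was not called (log2 fold change -0.25). Cd8a had 2.81 to 8.74 CPM with CNT-7 and 0.717 to 1.21 CPM with CNT-T. Cd3d, Cd3e and Cd3g were not tested, and Cd3d and Cd3g overlapped between the groups while Cd3e did not. Sums for mesothelial cells (8 genes, at most 1.01 CPM in any rat), fibroblasts (6 genes, at most 1.47 CPM), mast cells (8 genes, at most 2.51 CPM) and neutrophils (8 genes, at most 11.1 CPM) were low in both groups. Of the 4 neutrophil genes tested 1 was lower with CNT-7, S100a8 (log2 fold change -1.46, edgeR adjusted p = 0.016). It had 1.34 to 3.25 CPM with CNT-7 and 4.19 to 9.03 CPM with CNT-T. Not called were Cxcr2 and S100a9, with positive log2 fold changes (1.26 and 1.23), and Elane (-0.68). Eosinophil genes (5 genes) reached 9.33 CPM in CNT-7 rat 3, of which Ccr3 alone had 8.74 CPM. They summed to at most 0.67 CPM in the other rats, with Epx and Prg3 at 0. The part of these lists in the results was not tested, and in sorted bulk RNA a change in the share of cells and a change in RNA per cell cannot be told apart.

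Sdc1 (ENSRNOG00000059947) had the largest log2 fold change among the 7 members with enough counts. After CNT-7 it had 411 CPM in rat 3, 695 in rat 5, 921 in rat 10 and 402 in rat 11, and after CNT-T it had 15.1 CPM in rat 1, 17.1 in rat 2, 12 in rat 12 and 21.6 in rat 13. All CNT-7 rats were far above all CNT-T rats, the lowest CNT-7 rat being 18.7-fold above the highest CNT-T rat. The means were 607 ± 249.7 CPM (SD, n = 4) and 16.4 ± 4.01 CPM (SD, n = 4), a ratio of 37.0, and the log2 fold change was 5.21 (standard error 0.33). With each rat left out in turn it ranged from 4.94, without CNT-7 rat 10, to 5.36. Sdc1 is the plasma cell marker CD138, and therefore the other plasma cell genes are set beside it. Jchain, the joining chain of secreted antibodies, had at most 0.579 CPM, Mzb1, a chaperone of antibody-secreting cells, at most 1 count, and Tnfrsf17, the plasma cell receptor BCMA, at most 3 counts in any rat. All 9 plasma and B cell genes together reached 10.2 CPM in the CNT-7 rats, in which Sdc1 had at least 402 CPM.

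Sdc3 (ENSRNOG00000011927), a syndecan with a long ectodomain best known from neurons, was higher after CNT-7 in a narrower way. It had 418, 277, 278 and 424 CPM in CNT-7 rats 3, 5, 10 and 11, and 153, 181, 139 and 148 CPM in CNT-T rats 1, 2, 12 and 13. The groups did not overlap, and the lowest CNT-7 rat was 1.53-fold above the highest CNT-T rat. The means were 349 ± 82.7 and 155 ± 17.9 CPM (SD, n = 4 each), with a log2 fold change of 1.17 (standard error 0.16). Within the CNT-7 group the rats were ordered differently for both syndecans: rats 3 and 11 were the higher pair for Sdc3 and the lower pair for Sdc1.

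Sdc4 (ENSRNOG00000014297), the widely expressed syndecan of focal adhesions, had 52.4, 63.5, 56.5 and 66.0 CPM in CNT-7 rats 3, 5, 10 and 11, and 27.7, 23.3, 26.8 and 33.9 CPM in CNT-T rats 1, 2, 12 and 13. Every CNT-7 rat was above every CNT-T rat, by at least 1.55-fold. Its means were 59.6 ± 6.26 and 27.9 ± 4.40 CPM (SD, n = 4 each), and its log2 fold change was 1.09 (standard error 0.12). Sdc2, the syndecan of mesenchymal cells, had 1 count in CNT-7 rat 3 and none in the other 7 rats. The only glypican among the members, Gpc1, was listed at 0 in all 8 rats. Both lay below the level that 3 counts can show, and no fold change is given for them.

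**Figure D1:**
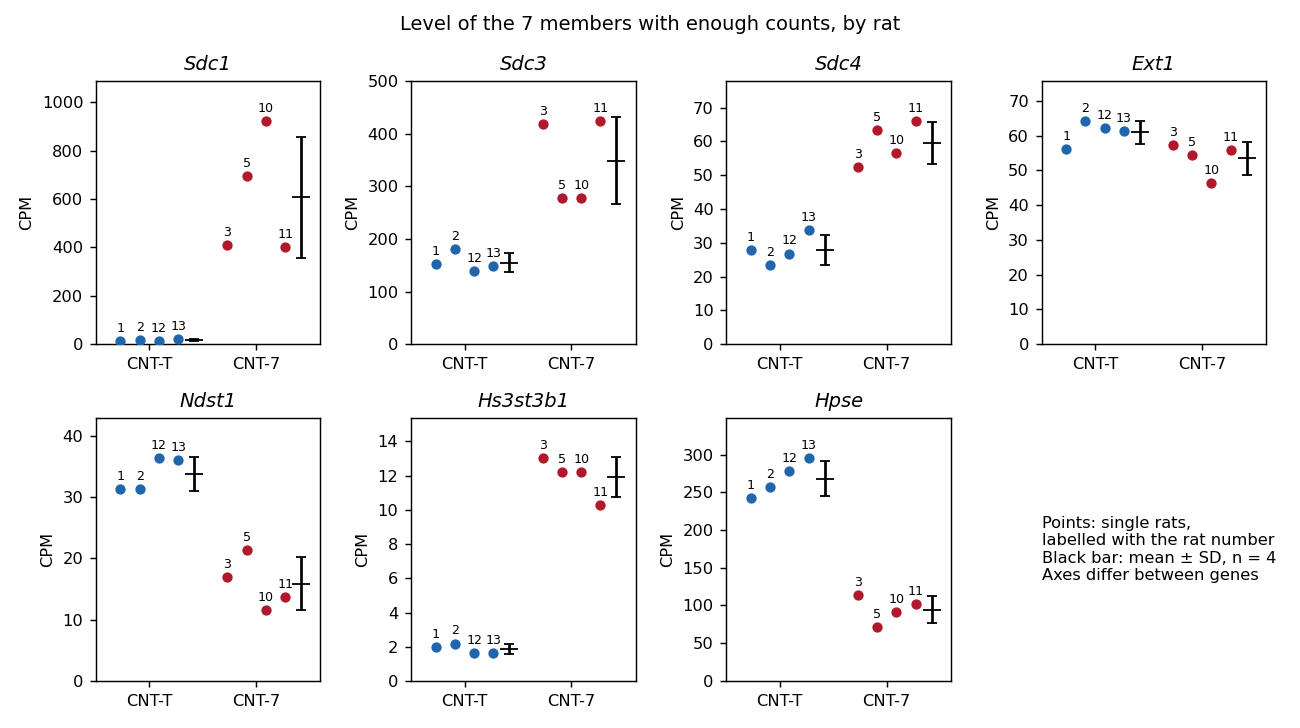
Level in CPM (vertical axis, starting at 0 and scaled for each gene) of the 7 members past the filter on low counts in 4 CNT-T rats (blue) and 4 CNT-7 rats (red), each point being 1 rat with its number and the black bar the mean ± SD. Sdc1, Sdc3, Sdc4 and Hs3st3b1 lie higher in all CNT-7 rats, Ndst1 and Hpse lie lower in all CNT-7 rats, and the groups overlap for Ext1.

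The polymerase gene Ext1 (ENSRNOG00000024886) differed little. It had 57.2, 54.3, 46.4 and 55.9 CPM in CNT-7 rats 3, 5, 10 and 11, and 56.2, 64.2, 62.1 and 61.3 CPM in CNT-T rats 1, 2, 12 and 13. The groups overlapped, since CNT-T rat 1 lay below CNT-7 rat 3. The means were 53.5 ± 4.83 and 61.0 ± 3.39 CPM (SD, n = 4 each), with a log2 fold change of -0.19 (standard error 0.081).

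Ndst1 (ENSRNOG00000019014), which replaces acetyl by sulfate groups on the nitrogen of glucosamine and thereby opens the chain to later sulfation, was lower after CNT-7. It had 17.0, 21.3, 11.5 and 13.7 CPM in CNT-7 rats 3, 5, 10 and 11, and 31.3, 31.4, 36.4 and 35.9 CPM in CNT-T rats 1, 2, 12 and 13. All CNT-7 rats were below all CNT-T rats, and CNT-7 rat 5 came nearest to them. The means were 15.9 ± 4.29 and 33.8 ± 2.78 CPM (SD, n = 4 each), with a log2 fold change of -1.09 (standard error 0.17). The log2 ratio of the group means was -0.71 among rats numbered 1 to 5 and -1.52 among rats numbered 10 to 13. The split was made for all 7 members and is printed for Ndst1 because its gap was the widest, the next widest being that of Sdc3, with 1.06 and 1.29. It was added after the data were seen, and what the rat numbers stand for is not stated in the labels.

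Hs3st3b1 (ENSRNOG00000003384), which adds the rare 3-O-sulfate late in the synthesis, differed in the opposite direction to Ndst1. It had 13.04, 12.2, 12.2 and 10.3 CPM in CNT-7 rats 3, 5, 10 and 11, and 1.99, 2.19, 1.65 and 1.65 CPM in CNT-T rats 1, 2, 12 and 13. The lowest CNT-7 rat was 4.70-fold above the highest CNT-T rat. Its means were 11.9 ± 1.17 and 1.87 ± 0.267 CPM (SD, n = 4 each), a ratio of 6.39, and its log2 fold change was 2.67 (standard error 0.15). The closely related Hs3st3a1 was listed at 0 in all rats, and Salmon divides reads between similar transcripts, so the assignment between these paralogs is uncertain. Hs3st1, which makes the antithrombin-binding site of heparin, had between 0 and 2 counts per rat.

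Hpse (ENSRNOG00000002188), the endoglucuronidase that cuts heparan sulfate, was lower after CNT-7. It had 113, 71.7, 91.0 and 102 CPM in CNT-7 rats 3, 5, 10 and 11, and 242, 256, 278 and 296 CPM in CNT-T rats 1, 2, 12 and 13. The lowest CNT-T rat was 2.14-fold above the highest CNT-7 rat. The means were 94.6 ± 17.7 and 268 ± 23.6 CPM (SD, n = 4 each), so that the level after CNT-T was 2.83 times that after CNT-7, and the log2 fold change was -1.50 (standard error 0.14).

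Of the 7 members past the filter, 4 were above the threshold of edgeR (an adjusted p-value under 0.10) in the direction of CNT-7 and 2 in the direction of CNT-T. Over all 12124 genes tested 13.9% were called higher and 14.0% lower after CNT-7. Groups without overlap were found for the same 4 and 2 members, beside 12.3% of all genes with CNT-7 above and 12.6% with CNT-7 below. As the members were chosen with this contrast known, nothing is read from these counts.

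Ratios between members within a rat restate the levels above as a balance between pairs of genes. The members were chosen with this contrast known, so the ratios are a description without a test. Nothing further is read from ratios that lie apart between the groups. Gene length cancels when the same ratio is set side by side between rats. The ratio of Sdc1 to Sdc3 CPM was 0.985, 2.51, 3.31 and 0.949 in CNT-7 rats 3, 5, 10 and 11, whereas the CNT-T rats had 0.0863 to 0.146. It varied more among CNT-7 rats than the other 3 ratios plotted, relative to the mean. The ratio of Sdc4 to Sdc3, in contrast, overlapped between the groups, with 0.125 to 0.229 after CNT-7 and 0.129 to 0.229 after CNT-T. For the sulfotransferases, the ratio of Hs3st3b1 to Ndst1 was between 0.571 and 1.06 after CNT-7 and between 0.0453 and 0.0697 after CNT-T. Relative to the polymerase Ext1, Hpse was between 1.32 and 1.98 after CNT-7 and between 4.00 and 4.82 after CNT-T. Ndst1 relative to Ext1 was between 0.245 and 0.393 after CNT-7 and between 0.489 and 0.586 after CNT-T.

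**Figure D2:**
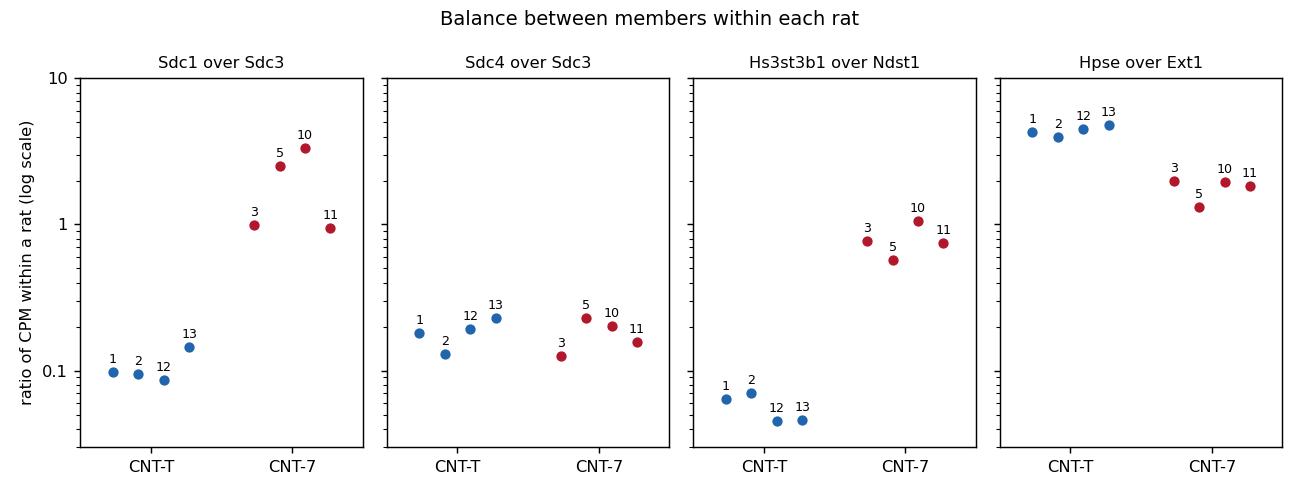
Ratio of CPM between pairs of members within each rat (vertical axis, log scale, shared by the 4 panels) for CNT-T (blue) and CNT-7 (red), with the rat number at each point. The groups are apart for Sdc1 over Sdc3, Hs3st3b1 over Ndst1 and Hpse over Ext1, and they overlap for Sdc4 over Sdc3. The members were chosen with this contrast known, and no test was run.

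The other genes of the pathway, listed from general knowledge of heparan sulfate and without the members, were tested in the same fit. The lists were drawn up with earlier results of these data known, so their shares of calls are given as a description. Of 68 genes 62 had a row in the table and 46 were tested, of which 11 were higher (23.9%), 8 were lower (17.4%) and 27 were not called, beside the 13.9% and 14.0% of all genes. Their median log2 fold change was 0.045, beside 0.0083 over all genes tested. The threshold was an adjusted p-value under 0.10 from the quasi-likelihood F test of edgeR, adjusted by Benjamini-Hochberg over all genes.

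None of the 7 linker genes, which build the stub shared with chondroitin sulfate, was called in edgeR or in DESeq2, 1 had an unadjusted p-value under 0.05 in edgeR, and their log2 fold changes lay between -0.14 and 0.30. In the list for polymerisation, sulfation and editing, 8 of 20 genes were tested, and 3 were higher. None was lower in edgeR, in DESeq2 or at an unadjusted p-value under 0.05. Sulf2, an extracellular enzyme that removes 6-O-sulfate groups from finished chains, had 408, 544, 490 and 493 CPM in CNT-7 rats 3, 5, 10 and 11, and 308, 249, 209.7 and 199 CPM in CNT-T rats 1, 2, 12 and 13. No CNT-T rat reached the lowest CNT-7 rat (log2 fold change 1.0015 ± 0.15 (SE), edgeR adjusted p = 0.0018). Extl1 (log2 fold change 1.59) and Extl3 (0.27), relatives of the polymerase, were also called, with overlap between the groups, and are named after their values were seen. Ext2, Extl2, Glce, Hs2st1 and Hs6st1, the enzymes of elongation, epimerisation and 2-O- and 6-O-sulfation, were not called, with log2 fold changes between -0.32 and 0.10. Hs3st2, Hs3st5, Hs3st6, Hs6st2, Ndst3 and Ndst4 were listed at 0 in all rats, as was Hs3st3a1, and Sulf1 and Ndst2 had at most 7 and 15 estimated counts.

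Among other core proteins, 7 of 12 genes were tested, 1 was higher and 2 were lower. Cd44, the hyaluronan receptor that can carry heparan sulfate in some splice forms, had 2518 ± 259 CPM with CNT-7 against 1463 ± 79.3 CPM with CNT-T (SD, n = 4 each; log2 fold change 0.78, edgeR adjusted p = 0.00070). Tgfbr3, the proteoglycan coreceptor betaglycan, had 73.8 ± 12.3 CPM with CNT-7 against 133 ± 20.9 CPM with CNT-T (log2 fold change -0.84, edgeR adjusted p = 0.0035). Nrp1 was also lower (-1.04), with overlap between the groups, and is named after its values were seen. Srgn, the proteoglycan of secretory granules, Agrn, Hspg2 (listed in the table under a clone-based name) and Gpc4 were not called, with log2 fold changes between -0.027 and 0.37.

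In the supply of precursors, all 10 genes were tested, 4 were higher and 1 was lower. The sulfate transporter Slc26a2 had 33.8 ± 3.08 CPM with CNT-7 against 22.3 ± 3.33 CPM with CNT-T (log2 fold change 0.60, edgeR adjusted p = 0.0067). Slc35d2, which carries activated sugars into the Golgi (0.37, adjusted p = 0.024), and Slc35b3, one of its carriers of activated sulfate (0.31, adjusted p = 0.058), were higher with groups that did not overlap, by the same edgeR test. Slc35b2, the other Golgi carrier of activated sulfate, was not called (-0.080, adjusted p = 0.51 in edgeR). Without CNT-7 rat 3 or 10, or CNT-T rat 1 or 2, the adjusted p-value of Slc35b3 in edgeR rose to between 0.118 and 0.141. Slc35d1, named after its values were seen, lay at the threshold (0.55, adjusted p = 0.0999 in edgeR). Ugdh, which makes the glucuronic acid donor, was lower (log2 fold change -0.31, edgeR adjusted p = 0.010). Papss1 and Papss2, which make the sulfate donor, were not called.

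Of 9 lysosomal enzymes listed for the breakdown of the chain and its linker, 6 were tested, 1 was higher and 2 were lower. Ids, which removes 2-O-sulfate from iduronic acid, was higher (log2 fold change 0.37, edgeR adjusted p = 0.0075). Naglu and Gusb, which remove N-acetylglucosamine and glucuronic acid, were lower, with log2 fold changes of -0.45 and -0.34 and adjusted p-values of 0.032 and 0.017 from edgeR. Idua, Arsg and Glb1 were not called.

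Proteins that bind the tails of syndecans or release their ectodomains made up a list of 10 genes, of which 8 were tested, 2 were higher and 3 were lower. Tiam1, an activator of Rac, was higher (log2 fold change 0.61, edgeR adjusted p = 0.0024), as was the sheddase Adam10 (0.37, adjusted p = 0.0084). Cask, a scaffold that binds syndecan tails, was lower (-0.45, adjusted p = 0.014 in edgeR). Mmp9, a secreted protease that can cut syndecan ectodomains, had 0.657, 0.603, 0.831 and 1.05 CPM in CNT-7 rats 3, 5, 10 and 11, and 21.5, 3.75, 3.79 and 6.55 CPM in CNT-T rats 1, 2, 12 and 13. Its log2 fold change was -3.50 ± 0.61 (SE, edgeR adjusted p = 0.0041), and without CNT-T rat 1, far above the other rats, it was -2.58. Prkca, named after its values were seen, was lower (-0.61), with overlap between the groups. Sdcbp, the tail adaptor syntenin, Adam17 and Gipc1 were not called, with log2 fold changes of 0.051, 0.13 and 0.11.

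**Figure D3:**
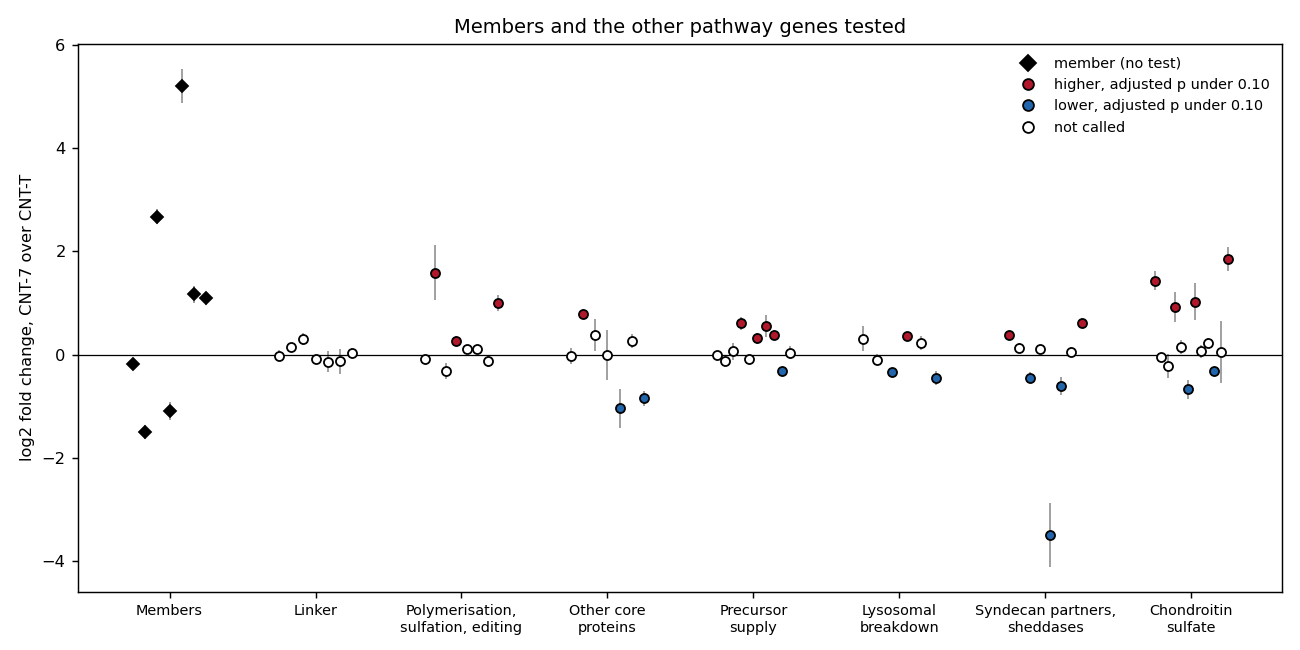
Log2 fold change (CNT-7 relative to CNT-T) with its standard error (vertical axis) for the 7 members (black diamonds, no test) and for the tested genes of 7 other lists (circles), filled red where called higher, blue where called lower and white where not called. The 7 linker genes lie near 0, whereas Sdc1 lies at 5.21 and Mmp9, the lowest circle, at -3.50.

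Chondroitin sulfate, the other chain built on the same linker, served as the nearest comparison. Its list, too, was drawn up with earlier results of these data known. Of 16 genes 12 were tested, 4 were higher (33.3%) and 2 were lower (16.7%), beside the 13.9% and 14.0% of all genes. The median log2 fold change of the 12 genes was 0.10. Without CNT-7 rat 3, 2 genes were called higher. Ust, which adds 2-O-sulfate to uronic acids of chondroitin, had 7.46 ± 1.43 CPM with CNT-7 against 2.05 ± 0.666 CPM with CNT-T (SD, n = 4 each; log2 fold change 1.86 ± 0.24 (SE), edgeR adjusted p = 0.00098). Chpf, a cofactor of the chondroitin polymerase, had 30.7 ± 3.56 CPM with CNT-7 against 11.4 ± 3.05 CPM with CNT-T (log2 fold change 1.43, edgeR adjusted p = 0.00091). Chst13, a 4-O-sulfotransferase, was higher (0.93, adjusted p = 0.049 in edgeR), and its adjusted p-value in edgeR rose to between 0.106 and 0.135 without CNT-7 rat 3 or 10 or CNT-T rat 1 or 13. Chst3, a 6-O-sulfotransferase named after its values were seen, was higher as well (1.02). Chst15, which adds a further sulfate to sulfated chondroitin, and Dse, the epimerase that makes dermatan sulfate, were lower, with log2 fold changes of -0.67 and -0.32 and adjusted p-values of 0.033 and 0.017 from edgeR. Whether chondroitin and heparan sulfate genes differed in their share of calls was not tested.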

How the data were processed

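The labels gave the particle and the number of each rat. The authors ran the ARMOR workflow, quantified reads with Salmon against Ensembl rat cDNA (Rnor_6.0) and imported the estimates with tximeta. They deposited estimated counts per gene, without normalization, which were already whole numbers. Estimated counts divide reads between similar transcripts. Stranded, poly(A)-selected libraries were sequenced, and molecular identifiers were not stated.

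Counts were normalized by TMM and filtered with filterByExpr (a minimum count of 10, a minimum total of 15), which left 12124 genes. In R 4.3.3, edgeR 4.0.16 (quasi-likelihood F test) compared 4 CNT-7 with 4 CNT-T rats, with Benjamini-Hochberg adjustment over all genes and a threshold of 0.10, as in the methods of the study. Each standard error is |log2 fold change| over the root of F. The scripts were tested on simulated data. The members and gene lists were chosen with earlier results of these data known. Genes named with their values were the members and, from each other list, up to 3 rises and 3 falls that were called, did not overlap between groups and had a mean of at least 1 CPM. A symbol missing from the table was looked up by its synonyms in the RefSeq gene table (GRCr8), which matched Hspg2 to a clone-based name, Bpnt2 to Impad1 and Cd79a to Cd79al, and a second row of Bpnt2 (Impad1), at 0, was left out. Alternatives were DESeq2 1.42.0, upper-quartile normalization, other filters and thresholds, a term for low and high rat numbers, and each rat left out in turn. The p-values set the difference between the groups against the spread between these rats, which each fit estimates with information shared across genes.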

Additional observations from a re-analysis of the deposited data

Results flagged for a closer look

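In 1 of 52 groups of 4 rats examined (the tested members and the named pathway genes, in both groups), 1 rat lay far from the rest of its group. Mmp9 was highest in CNT-T rat 1, with 21.5 CPM, whereas rats 2, 12 and 13 had 3.75 to 6.55 CPM, and the gap made up 0.842 of the range of the group, above Dixon's 95% critical value for 4 samples. About 2.6 of 52 groups are flagged by chance.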

How the results depend on the processing

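The log2 fold changes of the 7 members kept their direction in all 91 values from the alternative fits, and none moved by more than 1 SD between rats. Outside the fits that left out a rat, they stayed within 0.03 of the values reported. The number of genes called was 3383, and 1006 with at least a 2-fold change. For the heparan sulfate pathway without its members, an adjusted p-value under 0.05 left 7 genes higher instead of 11, and at least a 2-fold change left 2 higher and 2 lower, and 0 chondroitin sulfate genes lower (0 also in DESeq2 and at an unadjusted p-value under 0.05 with that fold, and 2 without it). With each rat left out in turn, between 2578 and 3515 genes were called, 8 to 10 pathway genes were higher and 7 to 8 lower, and 2 to 4 chondroitin sulfate genes were higher and 2 lower. Of the named pathway genes, Slc35b3 and Chst13 lost the threshold in 4 of the 8 fits without a rat. Other alternatives moved no count by more than 1.5 times. No rat of one group shares its number with a rat of the other, so that no paired analysis was possible because the labels give no pairs. Genes below about 0.109 CPM in every rat could not be compared at this depth. Others above this floor did not pass the filter on low counts, such as Chst11, with 0.168 to 1.58 CPM after CNT-7.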

Other observations

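A pair of genes of the chain-sulfating enzymes had low counts that differed between rats of the same group. Ndst2, the second N-deacetylase/N-sulfotransferase, had 15 counts in CNT-7 rat 11 and 0 in the other 7 rats. These are estimated counts, and how Salmon divided reads among the transcript models of Ndst2 was not tested. Chst11, a 4-O-sulfotransferase of chondroitin that did not pass the filter on low counts, had 48, 5, 34 and 12 counts in CNT-7 rats 3, 5, 10 and 11, and 0 or 1 count in the CNT-T rats. These genes were named after their values were seen and were not tested.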
